A study of Gossypium hirsutum with 42 samples.

Results

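The transcripts described here belonged to 9 upland cotton (Gossypium hirsutum) genes of the LHY type, Gh_A12G2465, Gh_A07G0547, Gh_A11G0828, Gh_A11G0102, Gh_D11G0117, Gh_A12G2299, Gh_A08G1186, Gh_A09G0416 and Gh_A07G1719. They were selected by name from the 24 rows of the expression table that carry the KEGG ortholog K12133 (LHY), out of 100881 genes in all. All 9 are described in the table as homeodomain-like superfamily proteins, and none of them is among the 8 rows that the study itself named LHY. The selection was made with their levels in hybrids and inbreds already known, so that contrast is given below as a description and without a test. The other 15 K12133 rows, which include the 8 that the study named LHY, serve as the comparison. Among these 15, Gh_A02G0904 is described as cyclin-dependent kinase-subunit 1 and Gh_A12G1781 as a myb-like transcription factor family protein.

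RNA was taken from 4 inbred lines, of which A is SJ48, B is Z98-15, C is 851-2 and D is DT-8, and from the 3 F1 hybrids that share A as a parent, SJ48-Z98-15 (H, from A and B), SJ48-851-2 (M, from A and C) and SJ48-DT-8 (L, from A and D). The letters H, M and L stand for high, medium and low heterosis in yield. Seedlings grew in Hoagland nutrient solution until true leaves were fully expanded, and both tissues came from each sampled plant. Each of the 14 combinations of genotype and tissue had 3 biological replicates, which gave 42 libraries, and the hour of harvest is not given in the sources used here.

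LATE ELONGATED HYPOCOTYL (LHY) and its relative CCA1 are transcription factors with a single MYB repeat that accumulate around dawn and repress genes of the evening in Arabidopsis. The REVEILLE proteins of the same family bind a similar DNA element, and some of them activate evening genes in Arabidopsis. Pseudo-response regulators (PRR) are expressed in sequence through the day and repress LHY and CCA1, which closes a loop of the plant clock. Since transcripts of such genes cycle over the day, a level taken at a single time carries the phase of the cycle as well as its height. The table does not say which Arabidopsis gene each of the 9 rows is closest to.

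The values were FPKM (fragments scaled by transcript length and library size), as deposited by the authors, so that levels can be compared between genes. Summed FPKM was between 391455 and 462952 per library, and the least correlated replicates of a group had a Pearson r of 0.932 on the log2 scale. Relative depth, read from the step size of the lowest values, lay between 0.834 and 1.21 of the median library. It was 0.834 to 1.00 in hybrid roots against 0.880 to 1.19 in inbred roots, and 0.884 to 1.18 in hybrid leaves against 0.934 to 1.21 in inbred leaves. The 118 genes of photosynthetic leaf markers summed to 26497 to 34565 FPKM in leaf libraries and to 268 to 634 FPKM in root libraries. The 182 root marker genes summed to 695 to 1063 FPKM in root libraries and 118 to 219 FPKM in leaf libraries, so tissue labels and markers went together in all 42 libraries. In bulk tissue, fewer cells of a type and less RNA per cell cannot be told apart.

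By their names, 8 of the 9 genes are on A subgenome chromosomes (A07, A08, A09, A11 and A12) and Gh_D11G0117 is on D11. For 4 A subgenome genes there was, among the other 15 rows, a D subgenome row with the same chromosome number and the same set of gene ontology terms. These were Gh_D07G0614 for Gh_A07G0547, Gh_D12G2593 for Gh_A12G2465, Gh_D11G0971 for Gh_A11G0828 and Gh_D12G2435 for Gh_A12G2299. The genes Gh_A11G0102 and Gh_D11G0117 formed such a pair between themselves. How fragments shared by near-identical copies were divided is not given in the sources used here, so the split of a level within these pairs is uncertain.

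The 9 genes fell into 3 kinds when the 9 hybrid libraries of a tissue were set beside its 12 inbred libraries. Gh_A12G2465, Gh_A07G0547 and Gh_A11G0828 were lower in every hybrid library than in any inbred library, in leaf and in root. Gh_A11G0102, Gh_D11G0117 and Gh_A12G2299 were higher in every hybrid leaf library than in any inbred leaf library, and overlapped in root. Gh_A08G1186, Gh_A09G0416 and Gh_A07G1719 overlapped in both tissues. Of 54835 genes tested in leaf, 3.74% lay wholly above and 2.13% wholly below the inbreds in this sense. Of 59282 genes tested in root, 1.85% lay above and 1.5% below. Since the contrast took part in the choice of the genes, nothing is read from these counts.

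**Figure D1:**
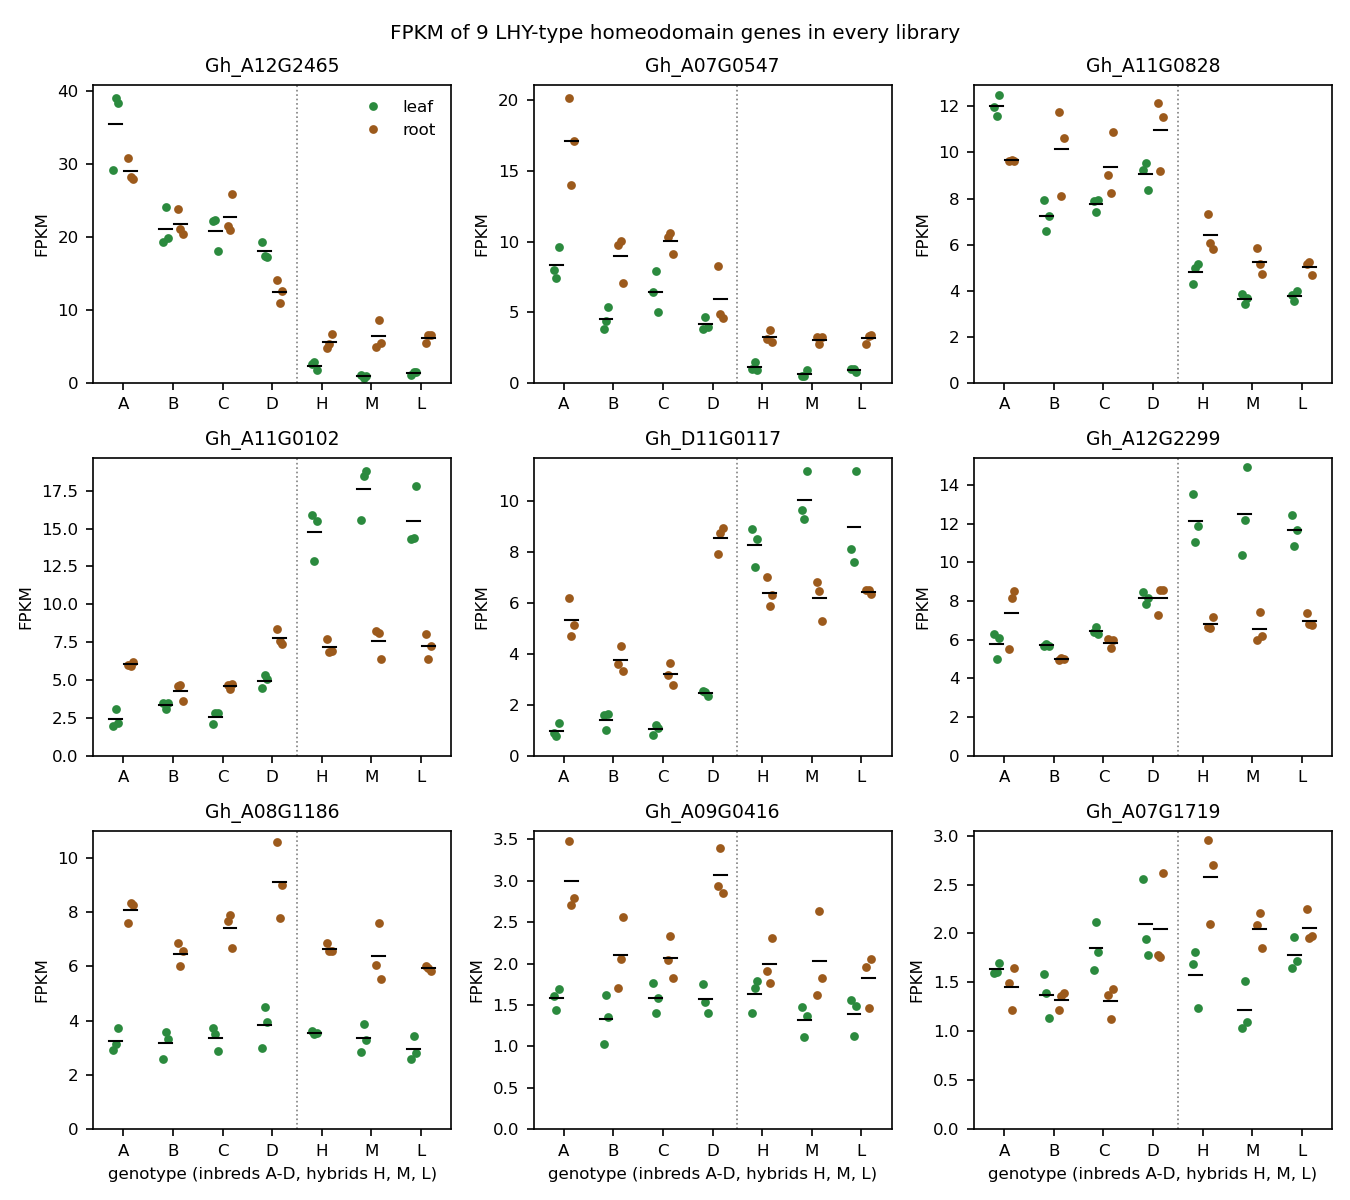
FPKM (vertical axis, linear, from 0) of each of the 9 genes in every library by genotype, leaf in green and root in brown, with black bars at the mean of 3 replicates and a dotted line between inbreds and hybrids. The top row holds the 3 genes that were lower in hybrids of both tissues, the middle row the 3 that were higher in hybrid leaf only, and the bottom row the 3 whose hybrid and inbred libraries overlapped.

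Gh_A12G2465 was the most abundant of the 9 in inbreds and among the 4 least abundant in hybrid leaf. In leaf its 3 libraries held 29.2, 39.0 and 38.4 FPKM in A, 19.4, 24.0 and 19.8 FPKM in B, 22.1, 22.4 and 18.0 FPKM in C, and 19.4, 17.4 and 17.3 FPKM in D. The hybrid leaf libraries held 2.52, 2.83 and 1.68 FPKM in H, 1.10, 0.634 and 0.978 FPKM in M, and 1.01, 1.53 and 1.41 FPKM in L. The lowest inbred leaf library was therefore above the highest hybrid one by a wide margin. Mean leaf FPKM was 15.7-fold lower in hybrids (1.52 ± 0.73, SD, n = 9) than in inbreds (23.9 ± 7.69, SD, n = 12). In root the mean was 3.57-fold lower (6.03 ± 1.23 against 21.5 ± 6.37 FPKM), with D the lowest inbred at 10.9 to 14.1 FPKM. Its D subgenome row Gh_D12G2593 was 19.9-fold lower in hybrid leaf and 4.50-fold lower in hybrid root.

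Gh_A07G0547 was likewise lower in hybrids, from a lower level in inbreds. In leaf it measured 7.97, 7.45 and 9.61 FPKM in A, 3.81, 4.38 and 5.39 FPKM in B, 6.42, 7.94 and 4.99 FPKM in C, and 3.83, 4.69 and 3.97 FPKM in D. The hybrids had 0.975, 1.47 and 0.877 FPKM in H, 0.492, 0.480 and 0.923 FPKM in M, and 0.969, 0.959 and 0.788 FPKM in L. No hybrid leaf library reached a level found in an inbred. The mean was 6.66-fold lower in hybrid leaf and 3.34-fold lower in hybrid root, where hybrids spanned 2.72 to 3.74 FPKM and inbreds 4.59 to 20.1 FPKM. The D subgenome row Gh_D07G0614 was 8.85-fold lower in hybrid leaf and 3.95-fold lower in hybrid root.

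Gh_A11G0828 showed the smallest gap of the 3 lower genes. Its leaf level ran from 6.59 to 12.5 FPKM over the inbred libraries (median 8.16 FPKM) and from 3.43 to 5.18 FPKM over the hybrid libraries (median 3.84 FPKM). In root the range was 8.11 to 12.1 FPKM in inbreds and 4.68 to 7.32 FPKM in hybrids. The inbred mean was 2.21 times the hybrid mean in leaf and 1.81 times in root. Among inbred leaves, A stood apart with 11.99, 11.6 and 12.5 FPKM. Its D subgenome row Gh_D11G0971 was 2.37-fold lower in hybrid leaf and 1.91-fold lower in hybrid root.

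The pair on chromosome 11, Gh_A11G0102 and Gh_D11G0117, was several times higher in hybrid leaf. Gh_A11G0102 measured 1.97, 3.09 and 2.18 FPKM in leaves of A, 3.46, 3.07 and 3.52 FPKM in B, 2.07, 2.81 and 2.85 FPKM in C, and 4.48, 5.34 and 5.04 FPKM in D. The hybrid leaves measured 15.9, 12.9 and 15.5 FPKM in H, 15.6, 18.5 and 18.8 FPKM in M, and 14.3, 14.4 and 17.8 FPKM in L. The lowest hybrid leaf library was far above the highest inbred one, and the means were 16.0 ± 2.04 (SD, n = 9) and 3.32 ± 1.12 FPKM (SD, n = 12), a 4.80-fold difference. In root, hybrids spanned 6.38 to 8.23 FPKM and inbreds 3.61 to 8.36 FPKM, a 1.29-fold difference in means. All 9 hybrid root libraries were above those of A, B and C, whereas D roots (8.36, 7.61 and 7.38 FPKM) lay within the hybrid range or just above it.

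Gh_D11G0117 had lower inbred leaf levels than its A subgenome partner and the largest ratio of the rising genes. In leaf it measured 0.889, 0.763 and 1.28 FPKM in A, 1.61, 0.995 and 1.64 FPKM in B, 0.810, 1.20 and 1.10 FPKM in C, and 2.52, 2.50 and 2.36 FPKM in D. Hybrid leaves held 8.90, 7.40 and 8.48 FPKM in H, 9.63, 9.28 and 11.2 FPKM in M, and 8.11, 7.61 and 11.1 FPKM in L. The mean was 6.17-fold higher in hybrid leaf and 1.22-fold higher in hybrid root. In root the 3 D libraries held 7.90, 8.73 and 8.93 FPKM and were above all 9 hybrid libraries (5.30 to 6.99 FPKM), while B and C were below them all. The ratio of Gh_A11G0102 to Gh_D11G0117 had a median of 1.77 in hybrid leaf and 2.18 in inbred leaf, and of 1.16 in hybrid root and 1.14 in inbred root.

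Gh_A12G2299 rose less, from a higher base. Leaf libraries measured 6.28, 4.98 and 6.09 FPKM in A, 5.69, 5.80 and 5.70 FPKM in B, 6.39, 6.64 and 6.28 FPKM in C, and 8.48, 7.86 and 8.14 FPKM in D. The hybrid leaves measured 13.5, 11.04 and 11.9 FPKM in H, 10.4, 12.2 and 14.9 FPKM in M, and 12.4, 10.8 and 11.7 FPKM in L. The hybrid leaf mean was 1.85 times the inbred mean, whereas the root means were 6.79 FPKM in hybrids and 6.60 FPKM in inbreds. Its D subgenome row Gh_D12G2435 was 1.75-fold higher in hybrid leaf, and was the only one of the 15 other K12133 rows whose hybrid leaf libraries all lay above the inbred ones.

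The remaining 3 genes kept overlapping levels. Gh_A08G1186 had a median of 3.42 FPKM in both hybrid and inbred leaf, and of 6.05 FPKM in hybrid root against 7.73 FPKM in inbred root. Gh_A09G0416 was low, with medians of 1.48 and 1.56 FPKM in hybrid and inbred leaf and 1.91 and 2.64 FPKM in hybrid and inbred root. Gh_A07G1719, also low, had medians of 1.65 and 1.66 FPKM in hybrid and inbred leaf and 2.09 and 1.41 FPKM in hybrid and inbred root. In its roots the hybrids spanned 1.85 to 2.95 FPKM, and replicate 3 of D at 2.62 FPKM was the only one of 12 inbred libraries inside that span.

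**Figure D2:**
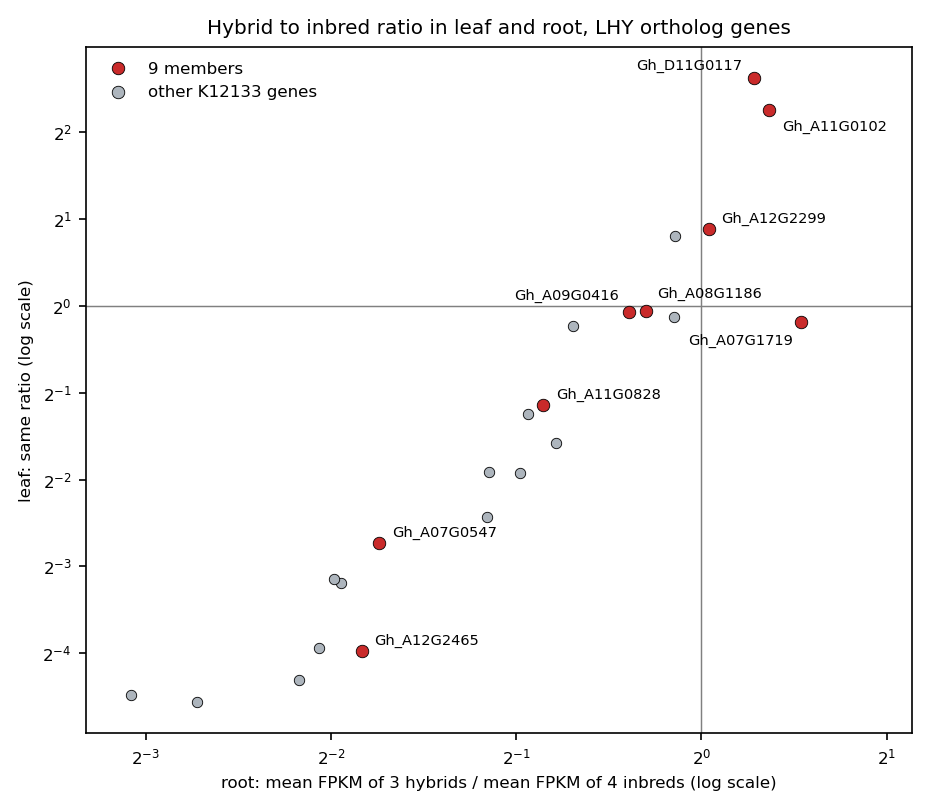
Mean FPKM of the hybrid libraries divided by that of the inbred libraries in leaf (vertical) and root (horizontal), both on log2 axes, for the 9 genes (red) and the other K12133 rows (grey), with lines at a ratio of 1. Gh_A12G1781, at or near 0 in every library, is not drawn. Gh_D11G0117 (6.17 in leaf) and Gh_A11G0102 (4.80) are at the top, and Gh_A12G2465, Gh_A07G0547 and Gh_A11G0828 lie further below 1 in leaf than in root.

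On the log2(FPKM + 1) scale, the mean of the 3 hybrids minus the mean of the 4 inbreds in leaf was -3.30 for Gh_A12G2465, -1.83 for Gh_A07G0547 and -0.96 for Gh_A11G0828. It was 2.06 for Gh_D11G0117, 2.00 for Gh_A11G0102 and 0.80 for Gh_A12G2299, and between -0.12 and -0.04 for the other 3. In root the same difference was -1.64, -1.37 and -0.75 for the 3 lower genes and 0.34, 0.32 and 0.06 for Gh_A11G0102, Gh_D11G0117 and Gh_A12G2299. For the other 3 it was 0.36 (Gh_A07G1719), -0.25 (Gh_A08G1186) and -0.26 (Gh_A09G0416). The medians over all tested genes were 0.07 in leaf and 0.05 in root. Read quality (the share of bases above Q20, as tabulated by the study) was of the lower class in all hybrid groups, in C and D leaf and in D root. Within these groups the leaf differences had the same signs, from -3.06 for Gh_A12G2465 to 0.66 for Gh_A12G2299 and 1.87 for Gh_A11G0102. In root, where D was then the only inbred, Gh_A12G2465 stood at -0.95 and Gh_A07G0547 at -0.70, while Gh_A11G0102, Gh_A12G2299 and Gh_D11G0117 turned to -0.08, -0.23 and -0.38.

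Each hybrid was also set beside its own parents, which share line A across the 3 sets. In leaf, Gh_A11G0102, Gh_D11G0117 and Gh_A12G2299 were above all libraries of both parents in H, in M and in L. Such a pattern held for 18.5%, 11.2% and 13.4% of all genes in H, M and L. The 3 lower genes were below both parents in every hybrid and tissue. In leaf 7.42%, 9.22% and 7.1% of all genes were below both parents in H, M and L. In M leaf, Gh_A07G1719 (1.22 ± 0.26 FPKM, SD, n = 3) was also below both parents. In root, Gh_A11G0102 and Gh_A07G1719 were above both parents in H and in M (12% and 10.1% of all genes) but not in L. In L root, Gh_A08G1186 (5.93 ± 0.085 FPKM, SD, n = 3, against 8.07 ± 0.42 in A and 9.13 ± 1.41 in D) and Gh_A09G0416 joined the 3 lower genes, which made 5 of 9 below both parents where 8.84% of all genes were. Below both parents in H and M root were 6.83% and 5.71% of all genes.

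The summed level of the 9 genes in leaf was alike in the hybrids and in B, C and D but higher in A, while its make-up differed between kinds. It had a median of 50.2 FPKM in hybrid leaf and 54.0 FPKM in inbred leaf, with ranges of 45.4 to 56.2 and 47.1 to 77.2 FPKM that overlapped. The leaf libraries of A, the parent shared by the hybrids, held 64.4, 73.0 and 77.2 FPKM, above every hybrid leaf library. In root the sum was 40.5 to 51.0 FPKM in hybrids and 60.5 to 90.9 FPKM in inbreds, without overlap. The 3 genes that were higher in hybrid leaf, grouped after their values were seen, made up 75.1% of the leaf sum in hybrids and 20.4% in inbreds (medians). As a share of the summed FPKM of all 24 K12133 rows, the 9 genes made up a median of 32.8% in hybrid leaf against 9.53% in inbred leaf, and 29.8% in hybrid root against 17.5% in inbred root. The sum over the 24 rows itself had medians of 152.7 FPKM in hybrid leaf and 523 FPKM in inbred leaf.

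**Figure D3:**
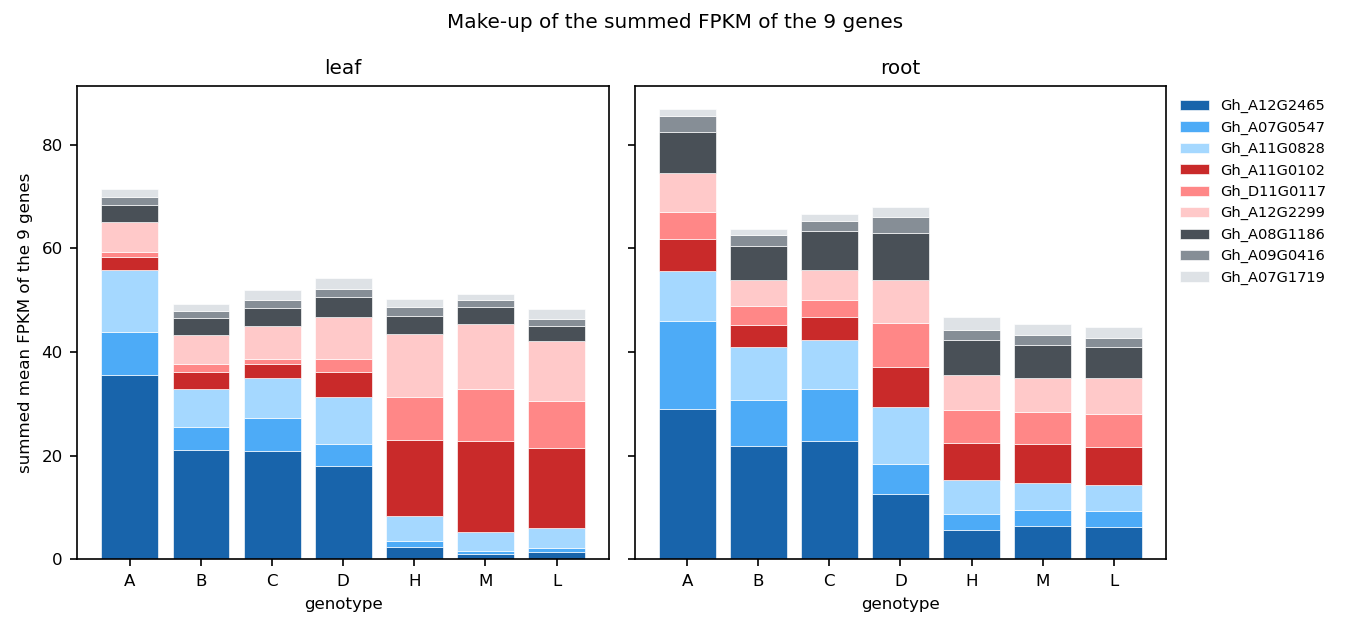
Summed mean FPKM of the 9 genes (vertical axis, from 0) by genotype in leaf and root, each bar divided by gene, with the 3 lower genes in blue, the 3 that were higher in hybrid leaf in red and the other 3 in grey. In leaf the hybrid bars are about as tall as those of B, C and D but mostly red, with Gh_A11G0102 at 14.8, 17.6 and 15.5 FPKM in H, M and L.

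The contrast between tissues asked where each gene was more highly expressed over the 7 genotypes together, with equal weight on each genotype. The hybrid leaf levels that took part in the choice of genes enter this mean, so p-values are given only for the 3 genes whose hybrid and inbred libraries overlapped, and the counts over the 9 are a description. None of the 9 passed both limits of the test (limma with Benjamini-Hochberg adjustment over 69603 genes, adjusted p under 0.05 and an absolute log2 difference above 1), which 23.9% of all genes passed. With the adjusted p alone, 6 of 9 were higher in root and 1, Gh_A12G2299, was higher in leaf, where 52.9% of all genes were higher in root and 26.6% higher in leaf (79.5% in either direction). The leaf count rests on the hybrids, since Gh_A12G2299 had a difference of 0.00054 over the inbreds alone. The same 7 of 9 had an unadjusted p under 0.05, as did 80.4% of all genes. The median of all genes was 0.24 on the log2(FPKM + 1) scale, root minus leaf, so a small positive value is the usual one.

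Gh_A08G1186 was higher in root in each of the 7 genotypes, without overlap of libraries in any of them, as were 23% of all genes. Its root minus leaf difference was 0.90 (SE 0.045, limma adjusted p = 1.72e-18, 95% interval 0.81 to 0.99). Root libraries held 5.54 to 10.6 FPKM and leaf libraries 2.58 to 4.52 FPKM. Gh_A07G0547 had a difference of 0.89 (0.69 over the inbreds and 1.15 over the hybrids), without overlap in 6 of 7 genotypes and with D as the exception. Gh_A09G0416 was higher in root by 0.39 (SE 0.047, limma adjusted p = 4.21e-09), without overlap in 5 of 7 genotypes. Gh_A11G0828 had a difference of 0.25, close to the median of all genes, and in leaves of A it was higher than in roots of A. Gh_A07G1719 had a difference of 0.09 (limma adjusted p = 0.0677, 95% interval -0.0019 to 0.18). This mean joined values of opposite sign, -0.11 over the inbreds and 0.36 over the hybrids, and that contrast was not tested. Root libraries were wholly higher in H and M and leaf libraries in C, while those of the other 4 genotypes overlapped.

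For 4 further genes the mean over genotypes also joined unlike values in inbreds and hybrids. Gh_D11G0117 (0.55) and Gh_A11G0102 (-0.07) were higher in root in all 4 inbreds and higher in leaf in all 3 hybrids, without overlap of libraries in any genotype. For Gh_D11G0117 the difference was 1.68, 0.98, 1.04 and 1.46 in A, B, C and D, and -0.32, -0.62 and -0.40 in H, M and L. For Gh_A11G0102 it was 1.06, 0.28, 0.66 and 0.56 in A, B, C and D, and -0.94, -1.12 and -1.0 in H, M and L. Gh_A12G2299 (-0.32) lay between -0.17 and 0.29 in the inbreds and between -0.83 and -0.66 in the hybrids. Gh_A12G2465 (0.56) went the other way, with -0.50 to 0.12 in inbreds and 0.98, 1.92 and 1.64 in H, M and L. These differences between hybrids and inbreds rest on the contrast that chose the genes and were not tested.

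**Figure D4:**
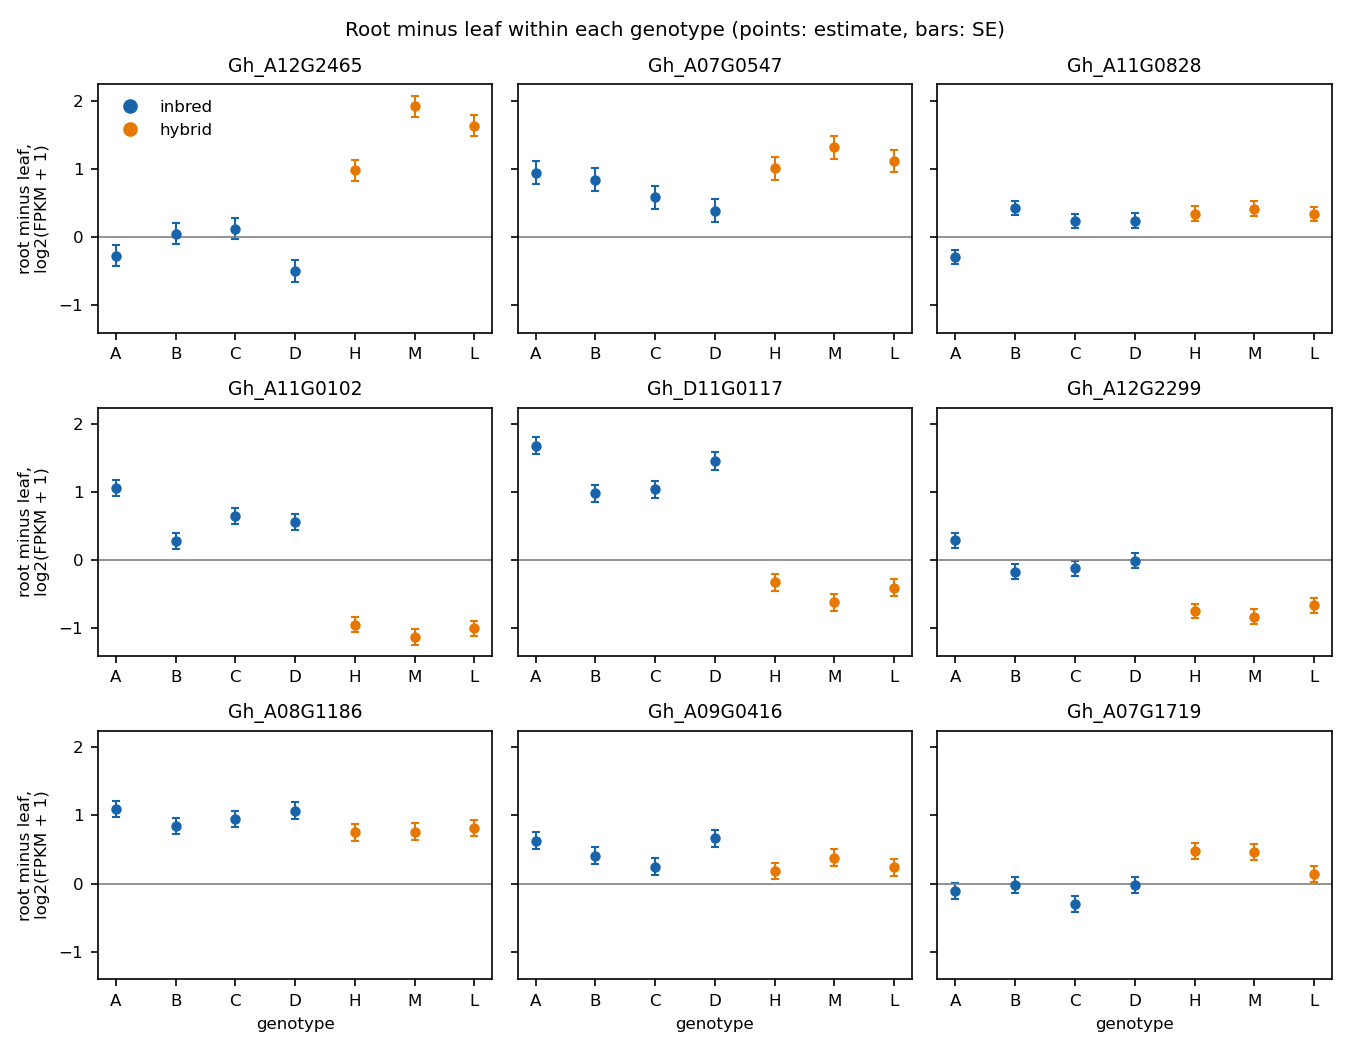
Root minus leaf difference in log2(FPKM + 1) for each gene and genotype, with points at the estimate and bars at 1 SE from the fit over 42 libraries, inbreds in blue and hybrids in orange. Gh_A11G0102 and Gh_D11G0117 lie above 0 in all 4 inbreds and below 0 in all 3 hybrids, and Gh_A08G1186 lies above 0 in all 7 genotypes.

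Differences among the inbreds asked how much these genes vary between lines, apart from any hybrid. In leaf none of the 54 combinations of gene and pair of lines passed both limits, where 1.58% of all combinations did (1 of 54 passed without replicate 1 of A). At an adjusted p under 0.05 without the fold limit 17 of 54 passed in leaf (6.14% of all combinations), and 26 of 54 had an unadjusted p under 0.05 (19% of all). In root 4 of 54 combinations passed both limits (2.17% of all) and 24 of 54 passed the adjusted p alone (11.4% of all). The pairs that included D held 18 of these 24 in root and 12 of the 17 in leaf, with 27 combinations on each side. Over all genes, 17.5% of the root combinations with D passed and 5.23% of those without D, against 6.69% and 5.59% in leaf, so in root the excess with D was general. D was the only inbred whose root libraries had the lower class of read quality, and its part in these differences was not tested.

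The 4 root calls were in 3 genes, all with D. Gh_A07G0547 was lower in D than in A by a log2 difference of -1.41 (SE 0.17, limma adjusted p = 4.21e-05), with 8.28, 4.88 and 4.59 FPKM in D and 20.1, 14.03 and 17.1 FPKM in A. Gh_A12G2465 was lower in D than in A by -1.16 (SE 0.16, limma adjusted p = 0.000116), with 14.1, 10.9 and 12.6 FPKM in D and 30.8, 28.2 and 28.0 FPKM in A. In both genes D was thus the inbred nearest to the hybrids. Gh_D11G0117 was higher in D than in C by 1.19 (SE 0.11, limma adjusted p = 1.58e-06) and higher in D than in B by 1.01 (SE 0.11, limma adjusted p = 9.29e-06). The difference from B was near the fold limit and fell to 0.94 without replicate 3 of B, 0.99 without replicate 1 of B, 0.99 without replicate 2 of D and 0.98 without replicate 3 of D.

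Ordered by level, the root values of Gh_A07G0547 ran from A (17.1 FPKM) through C (10.03) and B (8.94) to D (5.91). A differed from C (limma adjusted p = 0.021) and B from D (limma adjusted p = 0.0343), while C and B did not pass. For Gh_D11G0117 in root the order was D (8.52), A (5.34), B (3.75) and C (3.19). D minus A was 0.59 (limma adjusted p = 0.00177) and B minus A was -0.42 (limma adjusted p = 0.0295), while B and C did not pass. In leaf, Gh_A11G0828 was higher in A than in each of the other lines, with log2 differences of -0.66, -0.57 and -0.37 for B, C and D minus A (limma adjusted p = 4.3e-05, 0.000178 and 0.00488). Gh_A12G2465 was also higher in leaves of A, with -0.72, -0.74 and -0.93 for B, C and D minus A (limma adjusted p = 0.00779, 0.00528 and 0.000513). The pair Gh_A11G0102 and Gh_D11G0117 was highest in leaves of D, where both differed from A, B and C at an adjusted p under 0.05.

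The contrasts among hybrids asked whether H, M and L differed from each other. None of 27 combinations of gene and pair of hybrids passed both limits in leaf (0.785% of all combinations did) or in root (0.314% did). In leaf 2 of 27 combinations passed the adjusted p alone (2.38% of all) and 6 had an unadjusted p under 0.05 (14.6% of all). These 2 were lower values in M than in H, for Gh_A12G2465 (0.905 ± 0.24 against 2.34 ± 0.60 FPKM, SD, n = 3, log2 difference -0.80, SE 0.15, limma adjusted p = 0.00533) and Gh_A11G0828 (-0.32, SE 0.079, limma adjusted p = 0.0286). In root none passed the adjusted p (0.649% of all did) and 1 had an unadjusted p under 0.05 (8.97% of all). For Gh_A11G0102, which was several times higher in hybrid leaf, M minus H was 0.24 (95% interval -0.03 to 0.52) and L minus H was 0.07 (95% interval -0.21 to 0.34).

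The other K12133 rows are what remained after the 9 genes were chosen, and 8 of them are LHY rows that the study singled out by their levels in these samples, so their values are a description as well. Of the 13 other K12133 rows tested in leaf, 10 were lower in hybrids and none was higher at both limits, with a median log2 difference of -1.89, where 0.934% of all genes were lower and 1.63% higher. In root 8 of 14 were lower and none higher (median -1.12), where 0.847% of all genes were lower and 1.28% higher. The largest leaf difference was that of Gh_A11G0926 (1.61 ± 0.63 FPKM in hybrids, n = 9, against 38.2 ± 16.7 in inbreds, n = 12, log2 difference -3.84). In root it was that of Gh_D11G1068 (3.03 ± 0.54 against 25.6 ± 3.51 FPKM, log2 difference -2.72). Both are among the 8 rows named LHY by the study.

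Further clock genes were compared in the same contrast, in lists drawn up by ortholog, pathway or description. The study had already reported many circadian pathway genes as overdominant in hybrids of these same samples. The lists were drawn up with earlier results of these data known, so their counts and p-values are a description and not independent support. These p-values measure the spread between replicates of a group, and not that among the 4 inbreds or among the 3 hybrids. Pseudo-response regulator genes were higher in hybrid leaf in 8 of 14 cases and lower in none (limma, median 1.06, with 12 higher and 2 lower at an unadjusted p under 0.05, as were 29.3% and 16.2% of all genes), and in root 1 of 13 was higher. At an unadjusted p under 0.05 in limma, 9 of the 13 were higher in root and 4 lower (26.5% and 18.1% of all genes), with a median of 0.23. The largest rise was that of Gh_Sca013634G01, described as pseudo-response regulator 5, at 35.4 ± 5.24 FPKM in hybrid leaf and 2.14 ± 1.85 FPKM in inbred leaf (log2 difference 3.72, limma adjusted p = 1.17e-14). It was also the single rise in root (14.6 ± 1.61 against 8.32 ± 6.90 FPKM, log2 difference 1.02, limma adjusted p = 7.98e-10). There it was not called without replicate 1 of D. Both rows of GIGANTEA, a protein of the plant clock, stayed below the fold limit in limma (medians 0.67 in leaf and -0.62 in root), and both had an unadjusted p under 0.05 in each tissue. Of the evening complex genes, which repress their targets around dusk, 1 of 4 was higher in hybrid leaf, Gh_A13G1695, described as ELF4-like 3 (log2 difference 1.18, limma adjusted p = 3.09e-06). Of the CONSTANS-like genes, zinc finger regulators known for their part in photoperiodic flowering, 2 of 13 were higher in leaf, with Gh_D07G0867 the larger (3.88 ± 0.79 against 0.531 ± 0.17 FPKM). At an unadjusted p under 0.05 in limma, 5 of the 13 were higher and 5 lower in leaf (29.3% and 16.2% of all genes), and the median log2 difference was -0.0056. The study had already named Gh_D07G0867 itself as upregulated in hybrid leaf from these same samples, so its value too is a description. None of the 11 tested in root passed both limits in limma, and 4 were higher and 6 lower at an unadjusted p under 0.05 (26.5% and 18.1% of all genes). Of the KEGG circadian pathway without its K12133 rows, 16 of 278 genes were higher (5.76%) and 5 lower (1.8%) in leaf, where 1.63% and 0.934% of all genes were. In root 3 of 255 were higher (1.18%) and 5 lower (1.96%), where 1.28% and 0.847% of all genes were. This pathway list shares genes with the lists above, such as Gh_Sca013634G01, which was also its largest rise in leaf. The largest fall was that of Gh_A11G2570, described as SPA1-related 3, in leaf (log2 difference -1.93, limma adjusted p = 2.03e-12) and of Gh_D06G1145, described as cryptochrome 3, in root (-1.45, limma adjusted p = 7.3e-11). The largest rise in root was that of Gh_A07G1251, a Dof-type zinc finger gene that varied widely among inbreds (22.1 ± 8.62 FPKM in hybrids against 11.9 ± 17.4 FPKM in inbreds, limma adjusted p = 0.00358).

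The gene most like each of the 9 was sought by Pearson r over the 14 group means, each centred on its own tissue, among 32021 named genes. These r values are descriptions over means that share libraries and, for most genes here, the step between hybrids and inbreds. Gh_A11G0102 and Gh_D11G0117 were each other's nearest gene (r = 0.991). Gh_D11G0117 was followed by Gh_A05G3615 (EXS family protein, r = 0.988) and by the pseudo-response regulator 5 row Gh_Sca013634G01 (r = 0.987). Gh_A12G2465 was nearest to its D subgenome row Gh_D12G2593 (r = 0.994) and then to Gh_A10G2089, described as plasma membrane intrinsic protein 1;4 (r = 0.993), an aquaporin. Gh_A07G0547 was nearest to Gh_A10G1978 (TRF-like 9, r = 0.987) and Gh_D07G0614 (r = 0.986). Gh_A12G2299 was nearest to Gh_A06G1139 (dormancy-associated protein-like 1, r = 0.983) and Gh_A11G0828 to Gh_A08G1504 (nudix hydrolase homolog 8, r = 0.978). For the 3 genes with overlapping levels the nearest were Gh_D05G2482 (exocyst complex component sec3A, r = 0.958) to Gh_A08G1186, Gh_D05G0423 (mitochondrial substrate carrier family, r = 0.966) to Gh_A09G0416 and Gh_D06G1526 (SBP family, r = 0.913) to Gh_A07G1719.

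Among the 9 genes themselves, r was 0.964 between Gh_A12G2465 and Gh_A07G0547 and 0.917 between Gh_A12G2465 and Gh_A11G0828. It was 0.963 between Gh_D11G0117 and Gh_A12G2299 and -0.931 between Gh_A12G2465 and Gh_A11G0102. Gh_A08G1186 and Gh_A09G0416 followed each other (r = 0.867) and had r between -0.08 and 0.20 with the 3 genes that were higher in hybrid leaf. Gh_A07G1719 had r between -0.27 and 0.09 with each of the other 8.

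The gene ontology terms in the table, which the selection did not use, divided the 9 genes in a different way. All 9 shared terms for DNA binding, transcription factor activity and the nucleus, and for responses to salt, ethylene and cadmium. The term for circadian rhythm was given to Gh_A07G0547, Gh_A12G2465 and Gh_A07G1719 only. The terms for responses to abscisic acid, gibberellin, salicylic acid and jasmonic acid were given to the other 6 and to Gh_A07G1719. Gh_A11G0102, Gh_D11G0117, Gh_A12G2299 and Gh_A09G0416 had 1 identical set of 12 terms, shared by a single other row, Gh_D12G2435. That set thus held the 4 K12133 rows that were higher in hybrid leaf, and also Gh_A09G0416, which was not. Gh_A07G1719 had the same 20 terms as 6 rows that the study named LHY, but not their lower level in hybrids. These terms are annotation and hold no measurement from these samples.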

How the data were processed

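Total RNA of root and leaf was sequenced on an Illumina HiSeq instrument as paired-end reads. The authors cleaned the reads, aligned them to the TM-1 genome of Gossypium hirsutum with HISAT2 and assembled transcripts with StringTie, and they deposited FPKM values per gene for 42 libraries as estimated by StringTie and Ballgown. Neither versions nor the handling of fragments shared by similar copies is given in the labels or the methods. No counts were in the table, so a count test was not used. In pairs of libraries, 5.60% to 13.5% of the genes with FPKM under 0.1 had 1 shared ratio (within 1%), which gave relative depth only.

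Groups came from the sample titles. Values were tested as log2(FPKM + 1), a scale on which changes of low genes are understated, with limma 3.58.1 (mean-variance trend, two-sided, R 4.3.3) over genes that reached an FPKM of 1 in 3 or more libraries. All groups of a fit shared 1 estimate of the spread. P-values were adjusted by Benjamini-Hochberg over all genes tested, and a gene was called at adjusted p under 0.05 and an absolute log2 difference above 1. Root and leaf were compared over 42 libraries, and genotypes over the 21 libraries of a tissue. All 9 genes passed the filter in both tissues. The replicates are labelled only as biological, so p-values measure the spread between these libraries. That spread was taken within each genotype and tissue, so the contrast of hybrids with inbreds does not weigh the variation among genotypes of a kind. No 2 libraries held identical values. The genes and lists were chosen with earlier results of these data known.

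Root and leaf of a plant were paired by the study, yet the correlation of their deviations from the group means was 0.0094 (median of 21 plants, -0.0727 to 0.0674), and libraries with the same number in other genotypes had medians of -0.00756 in leaf and 7.15e-05 in root. Besides the 9 genes, the text names genes among the 3 most like each, the called genes with the largest rise and fall of each list, and K12133 rows. Other pseudocounts, filters, scalings, replicate blocks, read quality classes and sets of libraries were tried. The model was checked on simulated data. Of the RefSeq gene table, 0 names matched those of the file, and it was not used. Figures were drawn with matplotlib 3.10.9.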

Additional observations from a re-analysis of the deposited data

Results flagged for a closer look

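Gh_A11G0102 and Gh_D11G0117 differed in the direction of their tissue difference between inbreds and hybrids, with every library of 1 kind on 1 side. Root minus leaf of Gh_A11G0102 on the log2(FPKM + 1) scale was 0.64 over the 4 inbreds and -1.02 over the 3 hybrids. For Gh_D11G0117 it was 1.29 over the inbreds and -0.45 over the hybrids. In each genotype the root and leaf libraries of both genes did not overlap. The difference was not tested, since levels in hybrids and inbreds took part in the choice of these genes. Relative depth overlapped between kinds in both tissues (0.884 to 1.18 in hybrid leaf and 0.934 to 1.21 in inbred leaf). Leaf markers summed to 26497 to 33447 FPKM in hybrid leaf and 28193 to 34565 FPKM in inbred leaf, and their part in the result was not tested.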

How the results depend on the processing

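No alternative reversed a called value, and the cause of the changes below was not tested. Leaving out the filter on low values changed no count by over 1.5 times. With a pseudocount of 0.1 in place of 1, root minus leaf called 2 of the 9 genes in place of 0 (Gh_A07G0547 at 1.20 and Gh_A08G1186 at 1.07) and 30577 genes in all in place of 16605. Among inbreds it called 3 leaf combinations in place of 0 and, over all genes, 8821 in leaf and 13921 in root in place of 5194 and 7709. Among hybrids in leaf it called 1 in place of 0 and 1939 in place of 1291. In the contrast of hybrids with inbreds it called 25 higher and 11 lower circadian pathway genes in leaf (16 and 5 with a pseudocount of 1), 7 higher and 15 lower in root (3 and 5), 2 lower pseudo-response regulators in root (0), and 2 higher and 4 lower CONSTANS-like genes in root (0 and 0).

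Quantile normalization moved the median of all genes in root minus leaf from 0.24 to 0.08, a shift of -0.15. The difference of Gh_A07G1719 then turned from 0.09 to -0.08 and that of Gh_A11G0828 fell to 0.04. With this scaling 0 pseudo-response regulators were higher and 1 was lower in root (1 and 0 as deposited), and Gh_D11G0117 in D minus B root stood at 0.95, under the fold limit. Over the 4 inbreds only, root minus leaf was beyond the fold limit in 1 of the 9 genes (Gh_D11G0117 at 1.29). Over the 3 hybrids only it was beyond it in 3 (Gh_A12G2465 at 1.51, Gh_A07G0547 at 1.15 and Gh_A11G0102 at -1.02). Levels in hybrids and inbreds took part in the choice of these genes, so these values are a description, and no share of all genes is given for them. Fitted over hybrids alone, pairs of hybrids gave 685 calls in leaf and 341 in root (1291 and 558 in the fit with inbreds).

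Within the groups of the lower class of read quality, 5 pseudo-response regulators were higher in hybrid leaf (8 in all groups). In root, with D as the only inbred, 0 were higher and 4 lower, 11 circadian pathway genes were lower, and 6 of the 9 genes lay wholly below (3 in all groups). Leaving out each library in turn gave 0 to 1 inbred leaf calls, 899 to 2005 calls between hybrids in leaf over all genes, 0 to 1 higher and 0 to 1 lower pseudo-response regulators in root, 0 to 1 higher CONSTANS-like genes in root, 5 to 8 lower circadian pathway genes in root, and 0 to 1 of the 9 genes wholly above in root. The low end for higher pseudo-response regulators came without replicate 1 of D, and the 1 gene above in root came without replicate 3 of D. Gh_D11G0117 in D minus B root ranged from 0.94 to 1.09.

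With the plant as a replicate block, root minus leaf called 0 of the 9 genes and 16600 genes in all. With the replicate number as a block, 4 root combinations and 0 leaf combinations of inbreds were called, as without it, and the counts in the lists of clock genes stayed the same. Over all genes, pairs of inbreds then gave 5115 calls in leaf and 7651 in root (5194 and 7709 without the block). Pairs of hybrids gave 1222 in leaf and 543 in root (1291 and 558 without it). Each group had 3 libraries, the hour of harvest is unknown, and FPKM without counts gives no counting error.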
